A study of Drosophila melanogaster with 12 samples.

Results

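Of 17895 fly genes counted in single female heads, 22 were expressed in every head labelled SIRT6 knockout (KO). The same 22 were well below their KO level in every head of the w1118 strain. They were chosen by their values. Levels are in CPM, each gene's count relative to the total of all gene counts in its library. A gene was kept if its lowest level among 6 KO libraries was at least 1 CPM and at least 3 times its highest level among 6 w1118 libraries. The same rule turned round, with w1118 above KO, found 24 genes. Because the genotype values chose the 22 genes, their KO and w1118 levels are given as a description, and no test of genotype is read for them. The name near silent fitted 10 of them, whose level stayed below 1 CPM in every w1118 library. A further 8 reached between 1 and 5 CPM in w1118, and 4 genes, namely CG34215, Gba1b, CG14567 and lncRNA:CR40469, reached 5 CPM or more there and were not near silent.

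Drosophila melanogaster heads came from flies aged 21 days that had eaten treated food since eclosion. The 4 groups were KO fed 100 µM of the TDO2 inhibitor 680C91, KO fed its solvent DMSO, w1118 fed the inhibitor and w1118 fed DMSO, with 3 heads and so 3 libraries in each. TDO2 is the enzyme that opens the tryptophan ring in the first step of its breakdown. The w1118 strain is a white-eyed laboratory stock. The labels do not describe the KO allele, and how far its genetic background matches w1118 is not given in the sources used here, so the loss of SIRT6 and other differences between the stocks cannot be told apart.

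Libraries held 24633705 to 44545859 counts, and a level of 3 counts corresponded to 0.0703 to 0.126 CPM. Sirt6 itself was not lost from the counts, at 2.00 to 2.57 CPM in the libraries labelled KO and 1.18 to 3.73 CPM in w1118, so every direction below refers to the labels. Head markers were high in both genotypes: the summed level of 8 photoreceptor markers was 20422 to 26168 CPM in KO and 13700 to 37123 CPM in w1118. Both w1118 replicates 2 stood apart. Yolk protein genes took 9.97% to 13.7% of gene counts in KO and 0.429% to 21.8% in w1118, where those replicates were the low ones. Without them the rule found 47 genes. The 22 are among these by construction, since leaving out libraries can only loosen the rule.

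SIRT6 is a NAD-dependent deacylase that removes acyl groups from histones and other proteins, and it is known in mammals for roles in keeping chromatin closed, in DNA repair and in the control of retrotransposons. The genes found here are of several kinds. They include detoxification enzymes of the cytochrome P450 family, chitinases that cut the polymer of insect cuticle and gut lining, a spliceosomal RNA, and long RNAs transcribed on the strand opposite a coding gene.

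Of the 22 genes, 16 were protein-coding, 4 were annotated antisense RNAs, 1 was another long non-coding RNA and 1 was a small nuclear RNA. Antisense RNAs made up 18.2% of the set and 1.96% of the 9934 annotated genes with at least 1 CPM in every KO library. The mean level in KO was 1.59 to 376 CPM among the 22 genes, with a median of 15.96 CPM. In w1118 the mean was 0.176 to 12.96 CPM, with a median of 1.06 CPM. The ratio of the means had a median of 13.9 and ran between 4.62 and 69.7. The coefficient of variation of the 22 genes had a median of 15.5% in KO, above the 10.2% over all genes at this level. In w1118, where both replicates 2 stood apart, it was 31.7%, against 33.1% over all genes. In whole heads, more cells that express a gene and more of its RNA in each cell cannot be told apart.

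**Figure D1:**
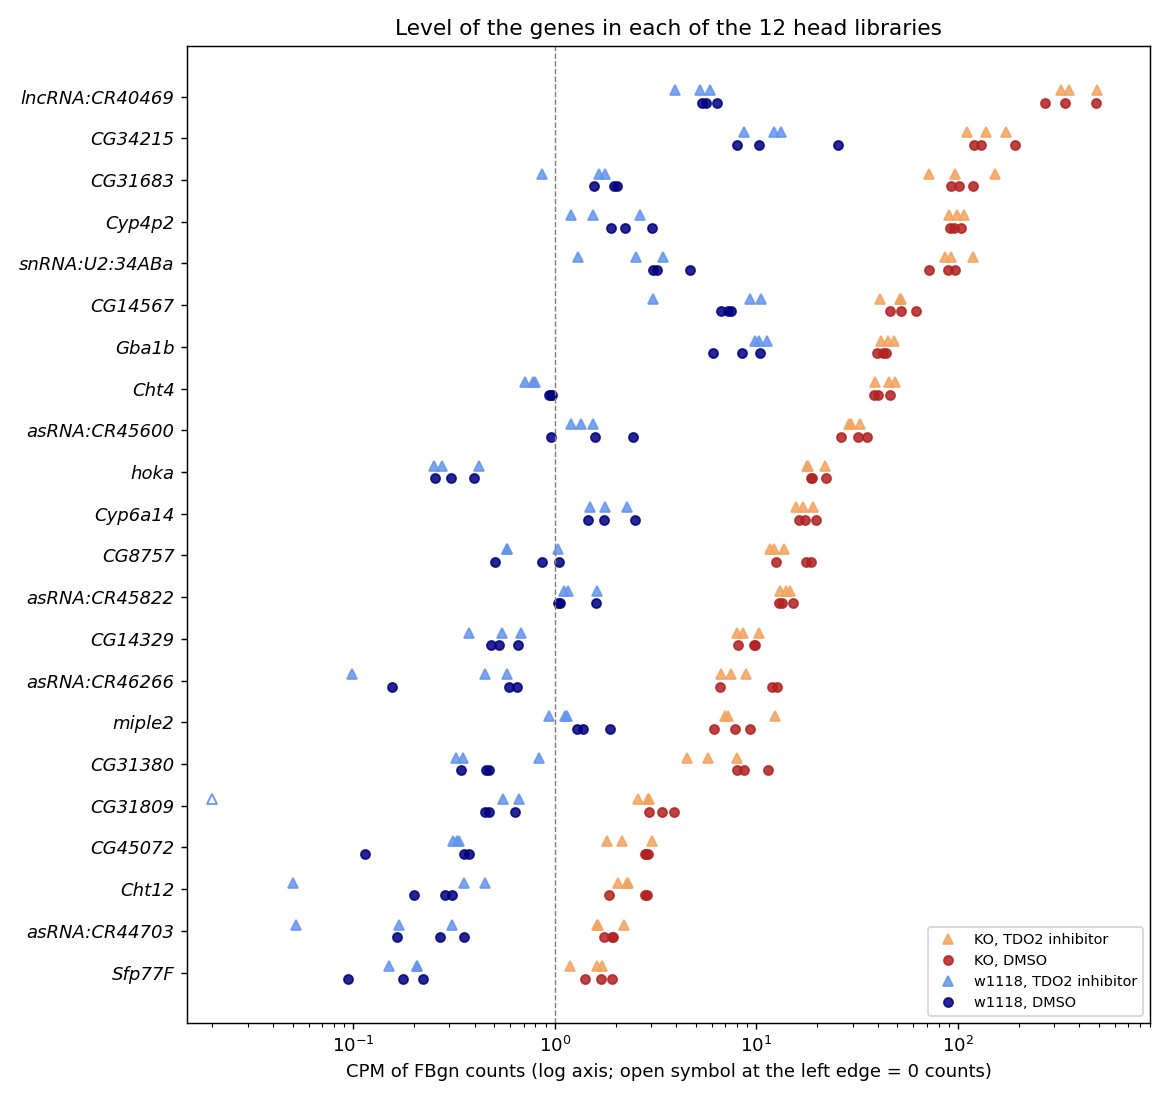
Level of each of the 22 genes in each library, in CPM of gene counts on a log axis, with genes ordered by their mean in KO; each symbol is 1 head and the dashed line is 1 CPM. Red and orange KO symbols lie to the right of the blue w1118 symbols in every row, as the rule requires, and in each row the circles (DMSO) and triangles (inhibitor) of one genotype lie at like levels, with the highest mean in lncRNA:CR40469 (376 CPM in KO).

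The gap between the genotypes varied within the set. The ratio of the lowest KO to the highest w1118 library was 10 or more for 10 genes, between 5 and 10 for 4 genes and under 5 for 8 genes. Just inside the limit were miple2 with a ratio of 3.29, Gba1b with 3.51 and CG14567 with 3.87. Just outside were CG34195 and CR10102, both with 2.95, and snoRNA:lola-b with 2.84. The gene lncRNA:CR44458 met the ratio but had a lowest KO level of 0.932 CPM. Among 9944 genes with at least 1 CPM in every KO library, 245 (2.46%) had all 6 KO libraries above all 6 w1118 libraries, and the 22 genes are the part of these with the widest gap.

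The most abundant RNA per length was lncRNA:CR40469 (FBgn0058469), a short non-coding RNA near the end of the X chromosome, at X:122493-122706 on the plus strand of BDGP 6.54. It had 271, 347 and 490 CPM as the lowest, median and highest KO library, against 3.95, 5.49 and 6.36 CPM in w1118. Per kilobase of exon its mean was 1759 CPM in KO and 25.3 CPM in w1118. Its ratio of means, 69.7, was the largest of the set, and w1118 heads still held 141 or more counts of it, so it was low there and not absent.

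The U2 small nuclear RNA is part of the spliceosome and pairs with the branch point of introns; the fly genome carries several near-identical copies. The copy snRNA:U2:34ABa (FBgn0004191, 2L:13211925-13212116, minus strand) had 71.4, 90.8 and 118 CPM in KO, against 1.30, 3.13 and 4.67 CPM in w1118. The copy snRNA:U2:38ABa went the other way, at 7.54 to 12.6 CPM in KO and 55.5 to 172 CPM in w1118, again without overlap. The 4 other copies overlapped between the genotypes. Summed over all 6 copies, U2 was at 116 to 174 CPM in KO and 91.8 to 255 CPM in w1118, so single copies stood apart while the total overlapped. Estimated counts divide reads among near-identical copies, and the level of any single copy is uncertain. This comparison with relatives, like those below, was chosen after the values were seen.

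CG31683 (FBgn0051683, 2L:20447734-20449964, minus strand) gave a like picture with its neighbour CG18858. It had 71.4, 98.4 and 153 CPM in KO, against 0.865, 1.72 and 2.02 CPM in w1118. CG18858, some kilobases away on the same strand, was at 71.7 to 159 CPM in KO and 64.3 to 296 CPM in w1118. That overlap came from w1118 replicate 2 with DMSO, without which w1118 was at 169 to 296 CPM, above every KO head. The summed pair overlapped between genotypes with and without that library, at 143 to 311 CPM in KO and 66.2 to 299 CPM in w1118. The ratio of means was 64.1 for CG31683 and 1.09 for the sum.

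The cytochrome P450 enzymes oxidise foreign compounds and endogenous lipids. Cyp4p2 (FBgn0033395, 2R:9237512-9239831, plus strand) had 90.3, 97.1 and 107 CPM in KO, against 1.20, 2.06 and 3.03 CPM in w1118, with a coefficient of variation of 6.67% in KO. Its neighbour Cyp4p1, which starts 209 bases away, lay lower in KO, at 25.7 to 33.9 CPM in KO and 46.6 to 69.6 CPM in w1118. Cyp4p3 overlapped, at 8.30 to 12.8 CPM in KO and 4.24 to 14.9 CPM in w1118, where the heads other than the replicates 2 reached at most 4.50 CPM. Unlike U2 and CG31683, the summed Cyp4p genes still did not overlap, at 127 to 153 CPM in KO and 53.1 to 84.1 CPM in w1118, a ratio of means of 2.01 in place of 46.7 for Cyp4p2 alone. Cyp6a14 (FBgn0033302, 2R:8564187-8567202, minus strand) had 15.7, 17.2 and 19.8 CPM in KO, against 1.46, 1.77 and 2.51 CPM in w1118. Its relative Cyp6a13 overlapped between genotypes, at 28.8 to 35.6 CPM in KO and 11.6 to 29.2 CPM in w1118, and without w1118 replicate 2 with DMSO it did not, as w1118 then reached 24.2 CPM.

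**Figure D2:**
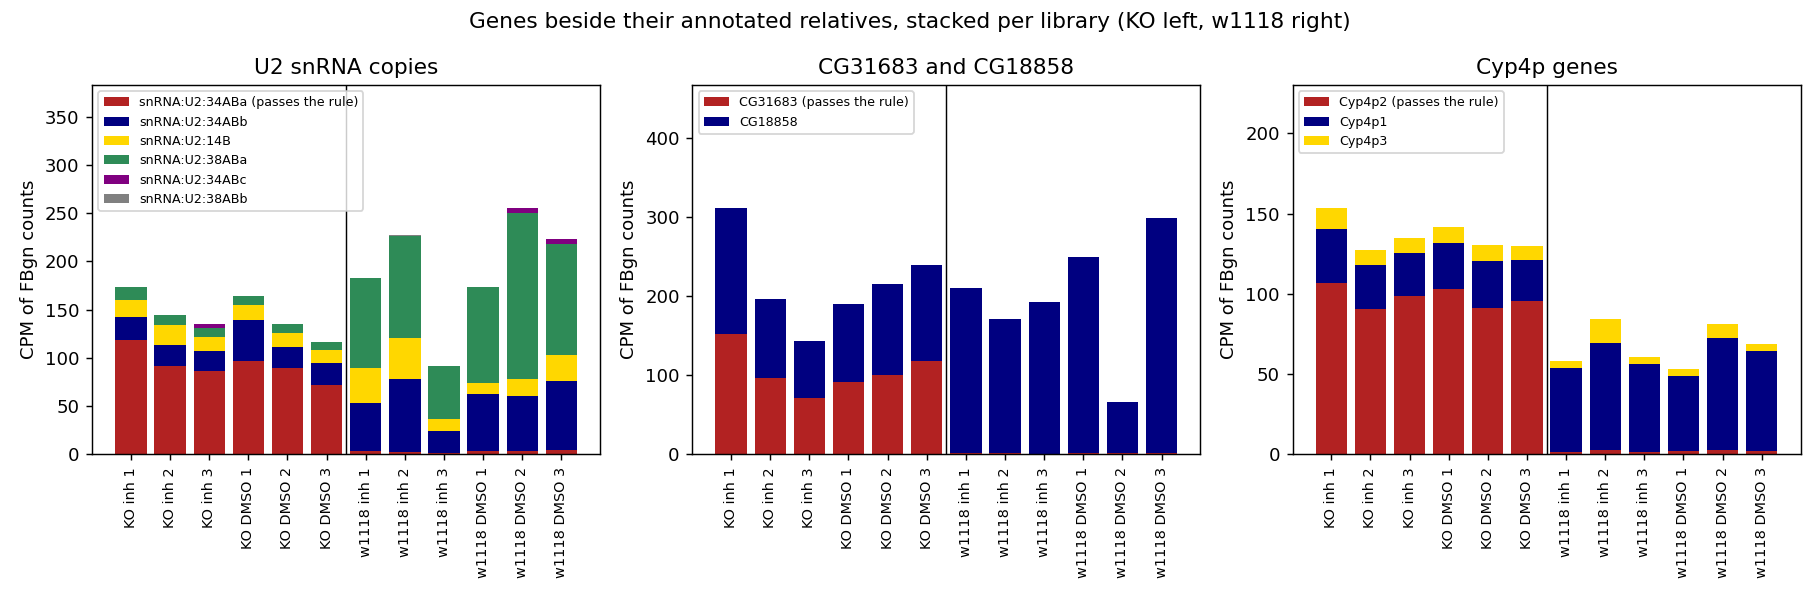
Level of 3 of the genes stacked on their annotated relatives, in CPM of gene counts on a linear axis from 0, with the 6 KO libraries left of the line and the 6 w1118 libraries right of it. The gene that passes the rule fills much of each KO bar and almost none of a w1118 bar; the bar heights of KO and w1118 overlap for U2 (116 to 174 CPM in KO, 91.8 to 255 CPM in w1118) and for CG31683 with CG18858, and do not overlap for the Cyp4p genes.

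Chitinases cleave chitin, the polymer of cuticle, tracheal lining and the membrane around gut contents. Cht4 (FBgn0022700, 2R:21065379-21067087, minus strand) had 38.1, 42.6 and 48.7 CPM in KO, against 0.712, 0.869 and 0.967 CPM in w1118. Its coefficient of variation was 10.3% in KO and 12.5% in w1118, the lowest of the 22 genes in w1118. Cht12 (FBgn0050293, 2R:21063178-21064986, minus strand) lies 392 bases away and was far less abundant, at 1.86, 2.29 and 2.88 CPM in KO, against 0.0501, 0.296 and 0.451 CPM in w1118. Per kilobase of exon, Cht4 averaged 29.1 CPM and Cht12 averaged 1.43 CPM in KO.

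Several coding genes of other kinds passed. The gene hoka (FBgn0035583, 3L:4898900-4900869, plus strand) encodes a membrane protein of the smooth septate junctions that seal midgut epithelium. It had 17.7, 18.7 and 22.1 CPM in KO, against 0.250, 0.291 and 0.419 CPM in w1118, where no library held more than 14 counts. Gba1b (FBgn0051414, 3R:23704804-23708512, plus strand) encodes a glucocerebrosidase, the lysosomal enzyme whose human relative is altered in Gaucher disease. It had 39.7, 43.1 and 48.0 CPM in KO, against 6.07, 10.04 and 11.3 CPM in w1118. Its ratio of means, 4.62, was the smallest of the set, and its paralogue Gba1a stayed at 0.172 to 0.412 CPM in KO and 0.160 to 0.521 CPM in w1118. 

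The gene miple2 (FBgn0029002, 3L:271200-275018, plus strand) encodes a secreted heparin-binding factor of the midkine and pleiotrophin family. It had 6.17, 7.54 and 12.4 CPM in KO, against 0.934, 1.22 and 1.88 CPM in w1118. Its neighbour miple1 overlapped between genotypes, at 78.4 to 96.9 CPM in KO and 63.1 to 198 CPM in w1118. Sfp77F (FBgn0259972, 3L:20896268-20897417, minus strand), named as a seminal fluid protein, lay close to the lower limit of the rule, at 1.19, 1.66 and 1.92 CPM in KO, against 0.0940, 0.192 and 0.223 CPM in w1118. These heads are labelled female, and in w1118 the gene held at most 8.25 counts in a library.

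The remaining coding genes carry only a systematic name. CG34215 (FBgn0085244, 2R:6831296-6831793, minus strand) averaged 324 CPM per kilobase of exon in KO, the highest of them. It had 111, 134 and 192 CPM in KO, against 8.05, 11.3 and 25.2 CPM in w1118. The highest w1118 value belonged to replicate 2 with DMSO, and the next was 13.2 CPM. CG14567 (FBgn0037126, 3L:21737706-21738430, minus strand) had 41.0, 51.7 and 61.8 CPM in KO, against 3.05, 7.37 and 10.6 CPM in w1118, and the lowest w1118 value belonged to replicate 2 with inhibitor.

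CG8757 (FBgn0036380, 3L:13840197-13842240, minus strand) had 11.7, 13.1 and 18.7 CPM in KO, against 0.503, 0.722 and 1.04 CPM in w1118. CG14329 (FBgn0038525, 3R:17609359-17610533, plus strand) had 7.99, 9.11 and 10.3 CPM in KO, against 0.376, 0.537 and 0.677 CPM in w1118. CG31380 (FBgn0051380, 3R:25787997-25789455, minus strand) had 4.54, 7.98 and 11.4 CPM in KO, against 0.325, 0.405 and 0.838 CPM in w1118. Among the 22 genes CG31380 varied most between KO heads, with a coefficient of variation of 31.0%.

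CG31809 and CG45072 lay near the lower limit of the rule. CG31809 (FBgn0051809, 2L:16853620-16858714, minus strand) had 2.58, 2.93 and 3.89 CPM in KO, against 0, 0.513 and 0.666 CPM in w1118, where the library at 0 was replicate 3 with inhibitor. Its neighbour CG31810 was at 0 to 0.279 CPM in KO and 0.0886 to 0.998 CPM in w1118, and the sum of the pair kept the genotypes apart, at 2.83 to 3.89 CPM in KO and 0.754 to 1.47 CPM in w1118. CG45072 (FBgn0266442, 3R:30122023-30123263, minus strand) had 1.81, 2.81 and 3.02 CPM in KO, against 0.114, 0.331 and 0.377 CPM in w1118.

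The 4 antisense RNAs lie over coding genes. Whether counting used the strand is not given in the sources used here, so reads of an antisense RNA and its partner cannot be told apart and their counts are uncertain. The RNA asRNA:CR45600 (FBgn0267160, 3R:15136985-15140121, minus strand) had 26.3, 30.7 and 35.3 CPM in KO, against 0.956, 1.45 and 2.44 CPM in w1118. The RNA asRNA:CR45822 (FBgn0267472, 3L:7355717-7356598, plus strand) had 12.9, 13.7 and 15.1 CPM in KO, against 1.04, 1.14 and 1.62 CPM in w1118. It shares 700 exonic bases, 79.4% of its own, with CTCF, an insulator protein gene. CTCF was at 31.4 to 33.8 CPM in KO and 20.2 to 34.6 CPM in w1118. The highest w1118 value belonged to replicate 2 with DMSO, without which w1118 reached 26.6 CPM, below every KO head.

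The other 2 antisense RNAs sit in the clusters of the set. The RNA asRNA:CR46266 (FBgn0275434, 3L:13840611-13842198, plus strand) had 6.62, 8.17 and 12.7 CPM in KO, against 0.0987, 0.515 and 0.651 CPM in w1118. It shares 1422 exonic bases with CG8757 on the opposite strand, and both passed the rule. In KO the same heads were high for both, namely replicates 2 and 3 with DMSO. The RNA asRNA:CR44703 (FBgn0265914, 2R:21068260-21069445, plus strand) had 1.61, 1.83 and 2.21 CPM in KO, against 0.0522, 0.218 and 0.356 CPM in w1118. It shares 893 exonic bases, 75.3% of its own, with the chitinase gene Cht9, which had 1.34 to 2.60 CPM in KO and 0.232 to 11.6 CPM in w1118. The highest of these was replicate 2 with DMSO, and the other 5 w1118 heads held 0.232 to 0.592 CPM of Cht9.

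By chromosome arm, 7 of the 22 genes lay on 3L, 6 on 2R, 5 on 3R, 3 on 2L and 1 on X. This was 31.8% on 3L, 27.3% on 2R, 22.7% on 3R, 13.6% on 2L and 4.55% on X. Of all genes with at least 1 CPM in every KO library, 19.2% lay on 3L, 20.5% on 2R, 24.5% on 3R, 17.8% on 2L and 16.8% on X. With 22 genes these shares are a description only. None of the 5 genes on 3R was close to Sirt6, which lies on that arm: the nearest, asRNA:CR45600, was 4.88 Mb away and the farthest, CG45072, was 19.9 Mb away.

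Only 5 of the 22 genes had another within 50 kb, and the other 17 stood alone. The first cluster held Cht12, Cht4 and asRNA:CR44703 within 6268 bases of 2R. The second was the overlapping pair CG8757 and asRNA:CR46266. The same 2 clusters were counted with limits of 20 kb and 100 kb. Outside them, the closest pair was Cyp6a14 and Cyp4p2, at 0.670 Mb. Genes that did not pass lie inside and beside the chitinase cluster. Cht9 lies inside it, under asRNA:CR44703, and Cht8 lies on the far side of Cht12 and overlaps its end. Cht8 was at 0.445 to 0.863 CPM in KO and 0.227 to 0.735 CPM in w1118. For both, the overlap of the genotypes came from w1118 replicate 2 with DMSO. Without it Cht9 was higher in every KO head than in every w1118 head, with a ratio of means of 5.50 in place of 0.922, and Cht8 had 0.445 CPM or more in KO and 0.351 CPM or less in w1118. Leaving out this library was tried after the values were seen.

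Another annotated gene overlapped 11 of the 22 genes, against 53.9% of all genes at this level, and for 9 of them exons were shared. CG34215 lies within CG15236 and Cyp4p2 within hig, in both cases on the opposite strand and with 0 shared exonic bases. CG15236 overlapped between genotypes, at 81.1 to 87.9 CPM in KO and 51.0 to 150 CPM in w1118. The gene hig did too, at 202 to 232 CPM in KO and 143 to 396 CPM in w1118. Without both w1118 replicates 2, the highest w1118 levels were 65.8 CPM for CG15236 and 181 CPM for hig, below every KO head. CG31683 shares 172 exonic bases with CG31688, Cht12 shares 35 with Cht8, miple2 shares 289 with CG32845, and Gba1b shares 560 with asRNA:CR44052. The last was at most 0.0616 CPM in KO and 0.0540 CPM in w1118, below 3 counts per library.

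Around asRNA:CR45600 several further genes were higher in KO. It overlaps CG6912, CG3984 and CG3987, and all 3 were higher in KO without overlap, though each fell short of the ratio of 3. CG6912 was at 23.6 to 37.1 CPM in KO and 5.74 to 9.02 CPM in w1118. CG3984, which shares 1731 exonic bases with the antisense RNA, was at 18.2 to 34.0 CPM in KO and 3.24 to 9.98 CPM in w1118. CG3987 was at 4.39 to 6.20 CPM in KO and 0.654 to 1.81 CPM in w1118. Because strand use is not known, how the reads of this locus divide between its genes is uncertain, yet the locus as a sum was at 72.7 to 111 CPM in KO and 12.9 to 18.7 CPM in w1118.

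**Figure D3:**
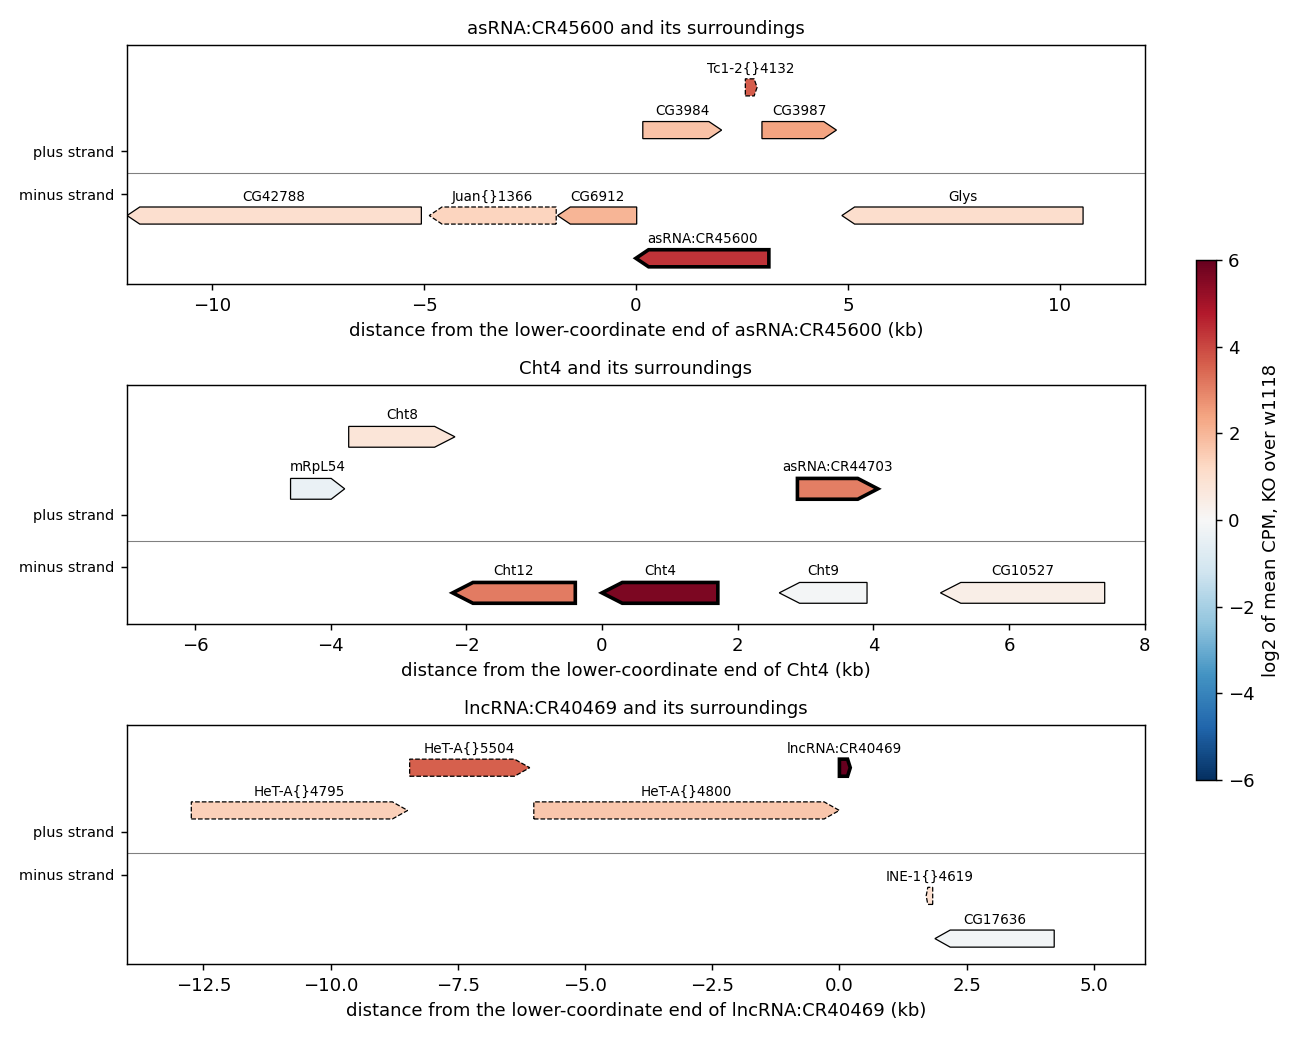
Genes (solid outlines, thick for the 22 genes) and transposable element copies (dashed outlines) around asRNA:CR45600, Cht4 and lncRNA:CR40469, by distance in kb from the end of each with the lower coordinate; the colour is the log2 ratio of mean CPM, KO over w1118, and arrows point along the strand. Features with a summed mean of at most 0.05 CPM are not drawn. All genes drawn around asRNA:CR45600 are red, Cht9 beside Cht4 is near white but has a ratio of means of 5.50 without w1118 replicate 2 with DMSO, and 3 HeT-A copies that point at lncRNA:CR40469 are red.

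The genes that overlap or directly adjoin the 22, and did not pass the rule themselves, were chosen by position and are set beside all genes. The averaged genotype effect was tested over 14155 genes with edgeR's quasi-likelihood test, and 754 (5.33%) were higher and 818 (5.78%) lower in KO at an adjusted p under 0.05. With median-of-ratios scaling, 892 were higher and 625 lower. Of 48 such neighbours 41 were tested, and 9 (22%) were higher and 2 lower. Of the 9, 5 belong to the asRNA:CR45600 locus, and without it 4 of 36 (11.1%) were higher. Among these 4, CG43931 and lncRNA:CR43607 met the count filter only through KO libraries, and CTCF shares exons with asRNA:CR45822. The share is therefore not read as a result. When every gene with at least 1 count was tested, 4 of 42 (9.52%) outside the locus were higher, against 3.87% of all genes. The counts moved with single libraries. Without w1118 replicate 2 with DMSO, 16 of the 41 (39.0%) were higher, against 13.4% of all genes, and without both w1118 replicates 2, 18 (43.9%), against 16.5%. Without KO replicate 3 with DMSO, 5 (12.2%) were higher, against 3.81%, and outside the asRNA:CR45600 locus 1 of 36 (2.78%) was. Neighbours that share exons with one of the 22 may share its reads.

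Within that locus the log2 change in KO over w1118 was 1.93 for CG6912 (SE 0.135, edgeR adjusted p = 1.9e-05), 2.35 for CG3987 (SE 0.169) and 1.53 for CG3984 (SE 0.410, edgeR adjusted p = 0.0398). The call of CG3984 was lost when any 1 of 9 libraries was left out. The flanking genes CG42788 (0.97, SE 0.147) and Glys, the glycogen synthase gene (0.96, SE 0.116, edgeR adjusted p = 0.000651), share no bases with the antisense RNA and rose as well. CG42788 was at 235.6 to 432 CPM in KO and 102 to 235.5 CPM in w1118, and Glys at 101 to 205 CPM in KO and 53.4 to 108 CPM in w1118.

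Elsewhere the neighbours that rose were CTCF (0.32, SE 0.0526, edgeR adjusted p = 0.00416), lncRNA:CR43607 (1.02, SE 0.235), CG43931 beside Sfp77F (1.61, SE 0.424) and lncRNA:CR44442 (0.88, SE 0.221). The calls of the last 3 were lost in some alternatives that left out a library. Those that fell were Cyp4p1 (-1.15, SE 0.103, edgeR adjusted p = 9.6e-05) and mRpL54, a mitochondrial ribosomal protein gene (-0.46, SE 0.104), whose call was lost in 9 of the 12 fits that left out a library.

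Transposable elements are mobile DNA whose copies are annotated one by one, and their rows took no part in the rule. At least 1 copy lay within 5 kb of 9 of the 22 genes (40.9%), against 24.1% of genes at this level, and copies overlapped 3 of the 22. There were 21 such copies, and 8 held enough counts to test in a fit over all rows. Of the 8 copies, 4 were higher in KO and 0 lower at an edgeR adjusted p under 0.05. Among these 4, INE-1{}2091 and Tc1-2{}4132 met the count filter only through their KO libraries. Tc1-2{}4132 and Juan{}1366 both lie at or near asRNA:CR45600. The share of the 8 is therefore not read as a result. Of all 2123 transposable element rows tested, 372 (17.5%) were higher. When every row with at least 1 count was tested, the same 4 were called of 17 copies (23.5%), against 357 of 4893 rows (7.3%). The count near the genes rests on few copies, and reads of repeated elements are divided among copies, so the level of a single copy is uncertain.

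The copy HeT-A{}4800 ends at the base before lncRNA:CR40469 begins, at X:116487-122492 on the same strand. HeT-A is a retrotransposon that maintains the chromosome ends of flies. It was at 31.2 to 48.9 CPM in KO and 7.26 to 29.4 CPM in w1118, a log2 change of 1.67 (SE 0.250, edgeR adjusted p = 0.00167). With the limit widened to 10 kb, 6 of 11 tested copies were higher, and the added calls were the next HeT-A copies of the same stretch, HeT-A{}5504 (3.54, SE 0.309) and HeT-A{}4795 (1.30, SE 0.225).

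Of the other copies called, Tc1-2{}4132 lies inside asRNA:CR45600 and may share its reads, with 0.516 to 1.17 CPM in KO and 0 to 0.127 CPM in w1118 (log2 change 4.20, SE 0.441). Juan{}1366, 1878 bases from the same antisense RNA, was at 3.34 to 7.15 CPM in KO and 0.946 to 3.93 CPM in w1118 (log2 change 1.30, SE 0.257, edgeR adjusted p = 0.00787). INE-1{}2091, 357 bases from CG14567, was at 0.343 to 0.765 CPM in KO and 0.0419 to 0.203 CPM in w1118 (log2 change 2.20, SE 0.378). The copy F{}3336 inside CG31809 spread widely, at 29.8 to 4054 CPM in KO and 407 to 1849 CPM in w1118, and its genotype effect was not called. The KO heads were at 29.8, 79.5 and 47.2 CPM with DMSO and 176, 1174 and 4054 CPM with inhibitor. In w1118 the values were 525, 1849 and 1781 CPM with DMSO and 1389, 526 and 407 CPM with inhibitor. An inhibitor effect on this copy was not tested.

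Relatives of the enzymes outside the 22 genes were called in both directions, at shares that rest on few genes, where 5.33% of all genes were higher and 5.78% lower. Of 21 further Cyp4 P450 genes, 1 (4.76%) was higher in KO, Cyp4d14 (0.44, SE 0.111), and 4 were lower, among them Cyp4d21 (-3.06, SE 0.224, edgeR adjusted p = 2.6e-05) and Cyp4e3 (-1.40, SE 0.222). Their median log2 change was -0.51, against -0.07 over all 14155 genes. Of 14 further chitinase and chitinase-like genes, 1 (7.14%) was higher, Cht7 (0.75, SE 0.210), and Cht6 was lower (-0.33, SE 0.0744), with a median of -0.14. Of the 3 smooth septate junction genes beside hoka, Ssk was higher (0.75, SE 0.212, edgeR adjusted p = 0.0474) and 0 were lower. A list of 11 meiotic recombination genes holds 0 of the 22 and was chosen with earlier results of these data known. Of its genes, 1 (9.09%) was higher and 0 were lower. The higher one was narya, a RING-finger protein of crossover sites (3.52, SE 0.776, edgeR adjusted p = 0.0177). The thresholds of the rule also chose narya in the DMSO libraries alone, so its p-value is not read as a separate test. In the 6 inhibitor libraries alone narya was not called (1.19, SE 0.922, edgeR adjusted p = 0.523). The summed level of that list spread widely, at 73.6 to 3092 CPM in KO and 49.6 to 502 CPM in w1118.

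Markers of cell types that a head sample could hold were counted in the same fit, where 11.1% of all genes were called in either direction. With 2 to 13 genes tested in a list, the counts rest on few genes. Of 12 gut markers only 8 held enough counts to test, and 0 of these were called. Their list had a summed level of 198 to 376 CPM in KO and 22.5 to 302 CPM in w1118. For 1 of the 12 every KO library lay above every w1118 library, and for 0 the reverse held. Among all 17895 genes 308 had every KO library above every w1118 library. Of 13 testis and sperm markers tested, dj was lower (-1.01, SE 0.280) and 0 were higher, with a sum of 13.2 to 19.4 CPM in KO and 12.5 to 34.5 CPM in w1118. Of 9 ovary and germline markers, bru1 (0.30, SE 0.0815) and vas (0.77, SE 0.216) were higher. Fat body markers gave Fbp1 higher of 8 (1.25, SE 0.349), haemocyte markers He lower of 6 (-0.97, SE 0.182), glia markers alrm lower of 5 (-0.56, SE 0.138) and muscle markers 0 of 6. Neuron markers gave nSyb higher of 6 (0.48, SE 0.131), photoreceptor markers chp higher (1.03, SE 0.138) and Rh5 lower of 8 (-0.48, SE 0.107), and salivary gland and proboscis markers CG14265 lower of 2 (-1.16, SE 0.255). The part of these in the levels of the 22 genes was not tested.

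The TDO2 inhibitor was asked within each genotype, a contrast the rule did not use. In KO heads, 0 of the 22 genes had an edgeR adjusted p under 0.05, where 1 of 14155 genes (0.00706%) did. At an unadjusted p under 0.05, 0 of the 22 were found with edgeR, against 3.69% of all genes, and 1 with limma's voom, against 3.09%. DESeq2 called 0 of the 22 after adjustment, against 67 of 14155 genes (0.473%). The log2 change with inhibitor had a median of 0.0032 among the 22 genes and ran between -0.57 and 0.25, with a median SE of 0.283. The main edgeR fit takes its spread from all 12 libraries, including both w1118 replicates 2. In an edgeR fit to the KO libraries alone the median SE of the 22 genes was 0.165. That fit called 0 of the 22 after adjustment, against 10 of 13343 genes.

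The largest change in KO was that of CG31380. It had 7.98, 5.75 and 4.54 CPM in KO with inhibitor, against 7.98, 8.67 and 11.4 CPM in KO with DMSO. The highest inhibitor value touched the lowest DMSO value, and in edgeR's fit the change of -0.57 (SE 0.282, unadjusted p = 0.0716, adjusted p = 1.0) did not pass. CG31809 was the 1 gene of the 22 with all 3 inhibitor libraries below all 3 DMSO libraries in KO, at 2.93, 2.58 and 2.91 CPM with inhibitor, against 3.89, 3.39 and 2.93 CPM with DMSO. The highest inhibitor value was just under the lowest DMSO value, and its log2 change of -0.23 (SE 0.675) did not pass. Among all genes with at least 1 CPM in every KO library, 11.0% showed this separation.

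In w1118 heads 0 of the 22 genes passed, where 0 of 14155 genes (0.0%) did, and 1 had an unadjusted p under 0.05 in edgeR, against 7.39% of all genes. DESeq2 called 0 of the 22, against 48 of all genes (0.339%). That gene was Cyp4p2, at 1.54, 2.65 and 1.20 CPM in w1118 with inhibitor, against 2.22, 3.03 and 1.91 CPM in w1118 with DMSO (log2 change -0.38, SE 0.165, adjusted p = 0.655). The inhibitor and DMSO values overlapped. The difference between the inhibitor's effects in KO and in w1118 (the interaction) called 0 of 22 genes against 0 of 14155 (0.0%). At an unadjusted p under 0.05 edgeR found 0 of the 22, against 4.84% of all genes, and DESeq2 called 0, against 68 of all genes (0.48%). Its smallest unadjusted p in edgeR was 0.0692, for Cyp4p2 (0.46, SE 0.225).

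**Figure D4:**
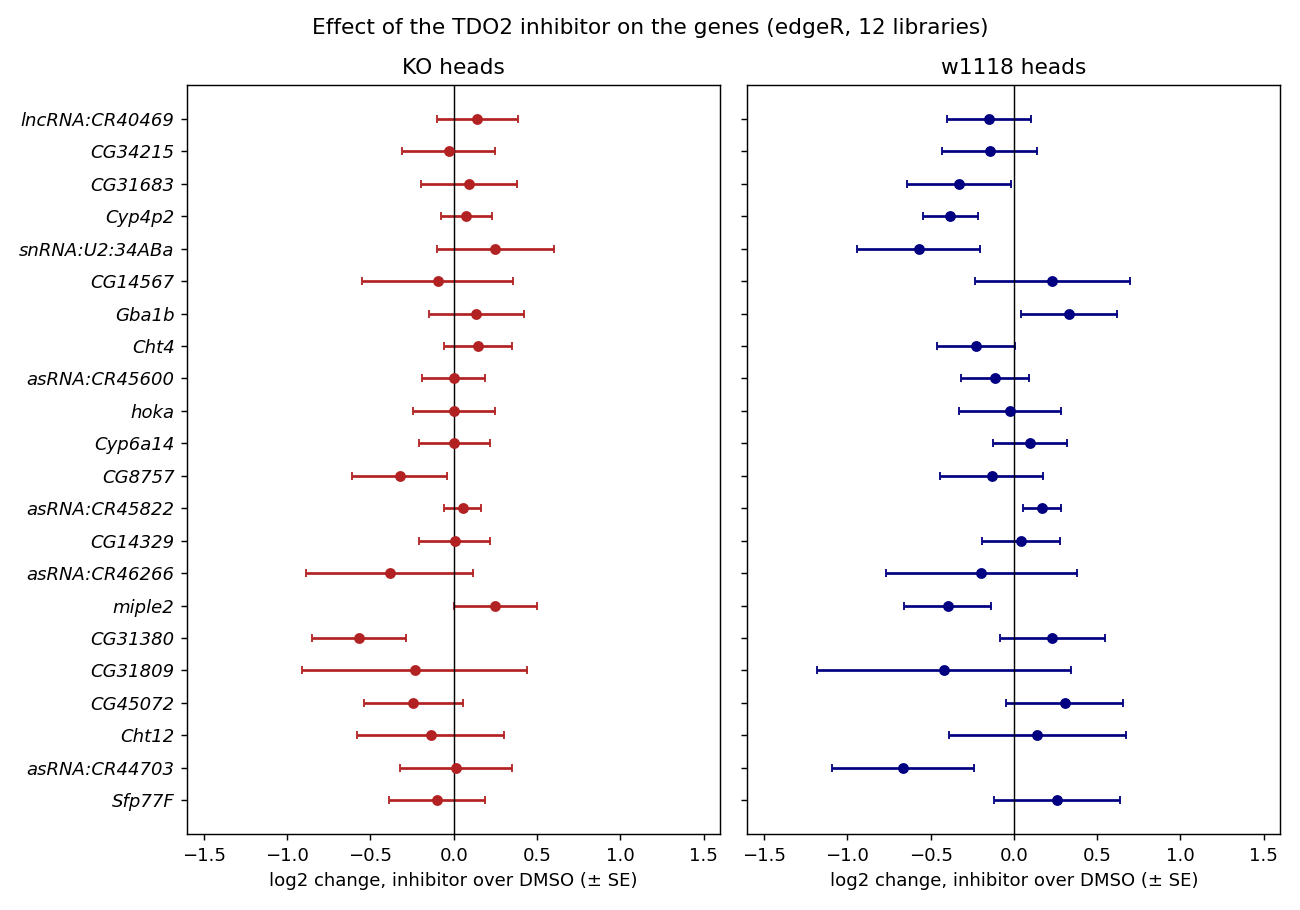
Log2 change with the TDO2 inhibitor over DMSO for each of the 22 genes, with its standard error from the edgeR fit to all 12 libraries, in KO heads (left) and w1118 heads (right). In KO heads the points lie between -0.57 and 0.25, and CG31380 is the lowest.

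The thresholds were also applied within one treatment at a time. The 6 DMSO libraries alone chose 57 genes and the 6 inhibitor libraries alone chose 48. A gene that passes over all 12 libraries passes in each 6 of them, so the 22 are among both by construction, and nothing is read from their calls in either fit. In an edgeR fit to the 6 inhibitor libraries, 22 of the 56 tested genes chosen with DMSO were higher in KO, 19 of them among the 22 described here, where 2.26% of all genes were higher. In a fit to the 6 DMSO libraries, 30 of the 47 tested genes chosen with inhibitor were higher. The 22 described here were all among them, with the same limit. Blocking on replicate number gave 10 and 13, of which 10 and 12 were among the 22 described here. Without KO replicate 3 with DMSO the second was also 13, again with 12 of those described here.

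The other genes chosen in one treatment had missed the thresholds in the other, so the tested libraries shaped this remainder. Its counts are no separate test of the choice. In the other treatment 3 of 34 passed the test with inhibitor, where 2.26% of all genes were higher. These were Cyp6g1, a P450 gene (2.64, SE 0.405), CR42653 and snoRNA:lola-b. With DMSO 8 of 25 passed, where 1.34% of all genes were higher. They were Hsp70Bc, a heat shock protein gene (3.84, SE 0.595), aspr, CG17005, CR10102, CG6912, CG3987, Ugt35E1 and CG34195. The gene mth, chosen with DMSO, had a log2 change of -4.89 (SE 2.15) with inhibitor and did not pass.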

How the data were processed

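The authors deposited 1 table of expected counts (estimated counts per feature, not scaled to depth), with 17895 gene rows, 5898 transposable element rows and 485 other rows. The submitters' processing notes name Trim Galore 0.6.7, STAR 2.7.9a, Salmon 1.10.1 and BDGP6; strand use is not given in the sources used here. Gene positions are those of Ensembl release 115 (BDGP 6.54), which matched 17855 gene rows. CPM used the total of gene rows per library, without further scaling. Counts were rounded and tested with edgeR 4.0.16 in R 4.3.3 (minimum count of 10, TMM, quasi-likelihood test, Benjamini-Hochberg adjustment, threshold 0.05), with 1 coefficient per group over 12 libraries, or the 6 libraries of 1 treatment for the repeated choice. DESeq2 1.42.0 and limma 3.58.1 (voom) were alternatives, as were other scalings, filters, distances, a replicate block and leaving out libraries. The scripts were tested on simulated data. Each library is another head, so p-values measure the spread between these heads. Reads carry no molecular identifiers, so the floor of 3 counts covers counting error only. The genes, gene lists and marker lists were chosen with earlier results of these data known. Genes given with values are the 22, their overlapping and adjacent genes that passed, named relatives, list members that passed, and those nearest the limits. A search for promoter motifs was not run.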

Additional observations from a re-analysis of the deposited data

Results flagged for a closer look

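In groups of 6 libraries, 4 of the 46 gene levels examined had 1 library far from the rest, and chance gives about 1 in 20. All 4 were w1118 libraries. CG31809 was at 0.0 CPM in replicate 3 with inhibitor, where the nearest library had 0.45 CPM. CG34215 was at 25.2 CPM in replicate 2 with DMSO, where the nearest had 13.2 CPM; this library is also low in yolk protein counts. CG31380 was at 0.838 CPM in replicate 2 with inhibitor, the other library low in yolk protein counts, where the nearest had 0.471 CPM. CG45072 was at 0.114 CPM in replicate 1 with DMSO, where the nearest had 0.311 CPM.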

How the results depend on the processing

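The rule found 39 genes with a ratio of at least 2, 14 with a ratio of at least 5, 47 without both w1118 replicates 2 (an alternative chosen after seeing the data) and 22 to 32 when 1 library was left out. Leaving out libraries can only loosen the rule, so the 22 genes pass each time by construction. These counts are therefore no check of the 22. With TMM it found 26 and with median-of-ratios scaling 27, each time 21 of the 22 and not Gba1b. With a lowest level of 0.5 CPM it found 23 and with 2 CPM 18. Calls among the 22 genes for the inhibitor in KO, in w1118 and for the interaction were 0 in every alternative run. Of the repeated choices, 16 to 28 genes passed with inhibitor and 13 to 36 with DMSO when 1 library was left out. The 22 genes are included in these counts. With the replicate number as a block these were 10 and 13, while the calls near transposable elements stayed at 4 and the inhibitor calls at 0. Same-numbered libraries correlated between -0.165 and 0.255 in their deviations, and in no comparison of groups did every pair exceed 0.1. The main fit therefore used no pairing. This does not exclude a structure shared by 1 replicate number. Both w1118 replicates 2 stood apart, and their deviations correlated at 0.185. The 754 genes higher in KO over the whole table became 1202 with DESeq2, 2367 without both w1118 replicates 2, and 491 (without KO replicate 2 with inhibitor) to 1951 (without w1118 replicate 2 with DMSO) when 1 library was left out. The cause of these shifts was not tested. Of the overlapping and adjacent genes, 9 higher in KO became 18 without both w1118 replicates 2 and 5 to 16 when 1 library was left out. Copies of transposable elements higher in KO numbered 3 within 1 kb and 6 within 10 kb. For 16 single genes and copies, 244 of 281 alternatives kept direction and call, 37 lost the call, among CG3984, CG43931, mRpL54, lncRNA:CR43607 and lncRNA:CR44442, and 0 reversed. Levels under the floor of 3 counts, such as the lowest w1118 values of Cht12 and asRNA:CR44703, are not resolved at this depth.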
